A study of Mus musculus with 16 samples.

Results

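The 10 genes described here encode SOCS box adaptors, namely 4 SPSB proteins (Spsb1, Spsb2, Spsb3 and Spsb4), CIS (Cish) and 5 SOCS proteins (Socs1, Socs2, Socs3, Socs5 and Socs6). They were taken by symbol, from a list selected on the deposited genotype contrasts (fold changes and p-values) described below, and all 10 were found among the 17539 genes of the quadriceps table and the 18000 of the brown fat table. Male C57BL/6 mice of 10 weeks of age, kept at room temperature, were either homozygous for the uORF-TAA allele of Ppargc1a or wild-type littermates. Ppargc1a encodes the coactivator PGC-1alpha, and the allele is named for an upstream open reading frame (uORF), whose exact change the labels do not spell out. Poly(A) RNA of quadriceps and of brown adipose tissue was sequenced in 4 libraries per genotype and tissue, 16 in all, and the authors' comparison of genotypes in each tissue was deposited as 1 table per tissue.

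SOCS box proteins are substrate receptors of ubiquitin ligases. The SOCS box at their C terminus binds elongin B and elongin C and, through them, a cullin, usually CUL5. The other part of the protein selects the target. In SPSB proteins it is a SPRY domain, which in some of them binds inducible nitric oxide synthase, and which also binds other proteins. In CIS and the SOCS proteins it is an SH2 domain, which binds phosphorylated tyrosines on cytokine receptors and their kinases. Cish, Socs1, Socs2 and Socs3 are transcribed in response to cytokines through STAT factors, so that their products act as feedback inhibitors. In muscle and fat they are known for limiting growth hormone, leptin, interleukin-6, interferon and insulin signalling.

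No value per library was analysed, so the spread among mice enters only through the authors' standard errors. The estimated depth was 11.4 to 31.8 M counts per library (M, mega) in quadriceps and 11.0 to 17.8 M in brown fat. Neither table says which genotype is the numerator. The genotype that each table's name puts first was taken as numerator, and on that assumption every fold change below sets uORF-TAA over wild type. If it fails in a tissue, every direction in that tissue turns round. The deposited fold changes behave as shrunken towards 0, so the changes may be larger than printed. In the tissues themselves, Acta1 and Ckm of muscle fibres were at means of 382506 and 284920 normalized counts in quadriceps, and Ucp1 and Cidea of brown adipocytes at 47561 and 37401 in brown fat, in the authors' deposited tables. Muscle fibre genes were also present in the brown fat libraries, as 7 markers summed to 164198 CPM in quadriceps and 7881 CPM in brown fat (CPM, a gene's share of its table's summed mean counts on the usual CPM scale).

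The mutated gene itself, Ppargc1a, was at 0.06 ± 0.13 (log2 fold change and SE) in quadriceps and 0.0016 ± 0.11 (SE) in brown fat in the authors' deposited tables.

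The reference sequence of 3 of the genes is shown for what is known or was found at their start sites. Spsb1 is shown because it was the member with a called change. The sequences are RefSeq's, on build GRCm38.p6, and are printed from 5′ to 3′ on the strand of the gene. The first is the 250 bases before the Spsb1 start site (chr4:149955007-149955256, minus strand), with GC boxes (GGGCGG or its reverse complement CCGCCC) in capitals. The other 2 are runs of 30 bases that hold the STAT motif TTCNNNGAA, in capitals, in Cish (chr9:107296649-107296678, plus strand) and Socs3 (chr11:117969501-117969530, minus strand).
Spsb1: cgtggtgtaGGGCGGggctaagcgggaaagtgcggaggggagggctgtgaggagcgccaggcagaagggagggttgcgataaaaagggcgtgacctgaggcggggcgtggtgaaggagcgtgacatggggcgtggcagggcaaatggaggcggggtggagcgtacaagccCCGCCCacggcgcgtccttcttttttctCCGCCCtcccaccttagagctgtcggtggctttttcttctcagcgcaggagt
Cish: ccgcccagttTTCCTGGAAagTTCTTGGAA
Socs3: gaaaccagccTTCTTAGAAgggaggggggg

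RefSeq start-site windows of 300 bases, 250 before and 50 after the start, were searched for 7 of the 10 genes, 11 windows in all. The 7 were Spsb1, Spsb2, Spsb3, Spsb4, Cish, Socs1 and Socs3. Socs6, on chromosome 18, was left out of this search, and no window was at hand for Socs2 and Socs5. The STAT motif, which is its own reverse complement, occurred in 2 of the 7, with 2 matches in Cish and 1 in Socs3. It occurred in 8.30% of all 32851 windows. GC boxes were found in 7 of the 7 genes and in 35.7% of all windows. A gene was counted if any of its windows held a match, and some genes had more than 1 window, so counts per gene and shares per window are unlike. In Spsb3, windows 2 and 4 held no GC box. The letters of a FOXO motif (TGTTTAC or GTAAACA, 3.65% of all windows), of a glucocorticoid receptor motif (searched on both strands, 0.475%) and of a cAMP response element (TGACGTCA, its own reverse complement, 1.79%) were in none of the 7 genes. The E-box CACGTG, its own reverse complement, was in 1 gene, Spsb3, and in 7.15% of all windows. None of these motifs' matches overlapped another motif's in the 7 genes. A match is a run of letters and not a measured binding site.

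The levels of the 10 genes were compared within each tissue as CPM per kilobase of exon. Spsb1 had the highest level of the 10 in both tissues, at 13.8 in quadriceps and 22.4 in brown fat. It alone made up 75.0% of the summed SPSB level in quadriceps and 62.4% in brown fat. Its mean normalized count was 998 in quadriceps and 989 in brown fat in the authors' deposited tables, above 85.2% and 85.9% of the genes listed.

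Among the other SPSB genes, Spsb3, whose human product is reported to act on the DNA sensor cGAS in the nucleus, followed at a level of 3.69 CPM per kilobase in quadriceps and 10.2 in brown fat. Spsb2, a partner of inducible nitric oxide synthase, was at 0.816 and 3.18. Spsb4, a reported ubiquitin ligase adaptor for the clock repressor REV-ERBalpha, was close to the limit of detection, at a mean normalized count of 5.53 in quadriceps and 3.62 in brown fat in the authors' deposited tables.

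Socs2, which limits growth hormone signalling, was the most abundant gene of the SH2 group, at 9.32 CPM per kilobase in quadriceps and 6.17 in brown fat. Socs5 was at 2.34 and 5.11, and Socs6 at 3.40 and 2.66. Both act on receptor tyrosine kinases. The 3 other cytokine-induced members were lower than Socs2 in both tissues. Cish, which inhibits STAT5 signalling, was at 1.12 in quadriceps and 1.68 in brown fat, and Socs3, which inhibits receptors of the interleukin-6 and leptin type, at 0.629 and 1.67. Socs1, the inhibitor of interferon signalling, was lowest of all in both tissues, at a mean normalized count of 0.942 in quadriceps and 3.16 in brown fat in the authors' deposited tables.

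In quadriceps the order from high to low was Spsb1, Socs2, Spsb3, Socs6, Socs5, Cish, Spsb2, Socs3, Spsb4 and Socs1. In brown fat it was Spsb1, Spsb3, Socs2, Socs5, Spsb2, Socs6, Cish, Socs3, Spsb4 and Socs1. Spsb3 and Socs6 in quadriceps stood within 1.09-fold of each other, and Cish and Socs3 in brown fat within 1.00-fold. The tables hold no spread of these means over mice, so how many neighbours in either order differ beyond it was not tested. The tables were normalized separately, and the ratio of quadriceps to brown fat is a description. It was above 1 for Socs2, at 1.51, and for Socs6, at 1.28. It was below 1 for the other 8 genes, from 0.181 for Socs1 to 0.931 for Spsb4. With the 10 highest genes of each table left out of the sums, the ratio of Spsb4 was 1.17 and that of the 7 others stayed below 1. In whole tissue, fewer cells of a type and less RNA per cell cannot be told apart.

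**Figure D1:**
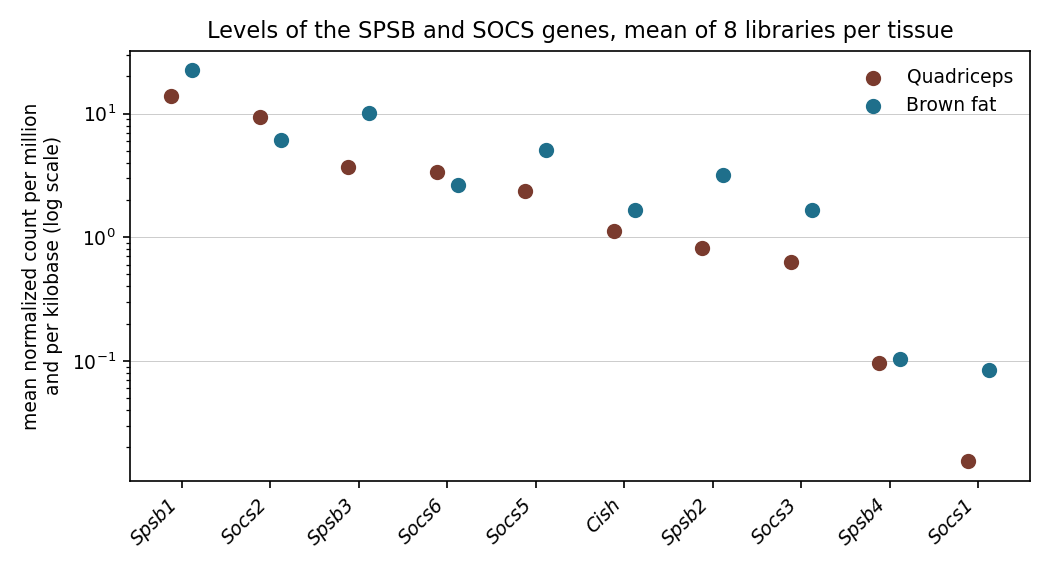
Levels of the 10 genes in quadriceps and brown fat, taken from the mean normalized count over the 8 libraries of a tissue as CPM per kilobase, on a log axis and ordered by the quadriceps level. Spsb1 is highest in both tissues (13.8 and 22.4), and Spsb4 and Socs1 are lowest.

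The fold changes between genotypes follow. The genes were chosen with these contrasts known, the call of Spsb1 in brown fat among them, so the values describe the genes and test nothing about them. In brown fat Spsb1 was lower in uORF-TAA, with a log2 fold change of -0.54 with an SE of 0.13, a 95% interval from -0.78 to -0.29 and an adjusted p of 0.0290 from DESeq2 in the authors' deposited table. As a linear ratio this is 0.690, with an interval from 0.581 to 0.819. Spsb1 had the 7th smallest p of that table. The call was lost when p-values were adjusted over all 17973 genes with a p (adjusted p = 0.0562 by Benjamini-Hochberg), where the deposited adjustment covers 9272. In quadriceps the log2 fold change of Spsb1 was -0.22 with an SE of 0.13 and an interval of -0.48 to 0.05, with an unadjusted p of 0.104 and an adjusted p of 1.00 from DESeq2 in the authors' deposited table. The estimate was therefore below 0 in both tissues, and the interval excluded 0 in brown fat and included it in quadriceps.

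Of the 10 genes 1 was called lower in brown fat at an adjusted p under 0.05, against 0.0647% of all 9272 genes with an adjusted p in that table. In either direction 0.0863% were called. In brown fat 5 of the 10 have an adjusted p in the authors' deposited table (Spsb1, Spsb3, Socs2, Socs5 and Socs6), and Spsb2, Spsb4, Cish, Socs1 and Socs3 lie among the genes without one. In quadriceps 0 of the 10 were called by DESeq2, against 0.00% of 17521 genes, and 0 had an unadjusted p under 0.05, against 2.00%. In brown fat 1 of the 10, Spsb1, had an unadjusted p under 0.05, against 2.07% of 17973.

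The 3 other SPSB genes had values near 0 in brown fat. On the log2 scale Spsb2 was at -0.01 ± 0.13 (SE), Spsb3 at -0.02 ± 0.11 and Spsb4 at 0.05 ± 0.05 in the authors' deposited table. In quadriceps Spsb2 was at 0.16 ± 0.13, Spsb3 at 0.08 ± 0.13 and Spsb4 at 0.02 ± 0.10 (SE) in the authors' deposited table. The 95% interval of Spsb3, the next most abundant SPSB gene, covered -0.18 to 0.34 in quadriceps and, in brown fat, -0.23 to 0.20. Spsb4 had few counts, and genes of low mean have small standard errors in these tables, so its narrow interval is not a sign of precision.

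Among the SH2 genes, Cish had the largest estimate in brown fat, 0.17 ± 0.11 (SE, log2) in the authors' deposited table, with an unadjusted p of 0.141 from DESeq2 and a 95% interval from -0.06 to 0.39. In quadriceps it was at -0.04 ± 0.12 (SE) there. Its start site carries the pair of STAT motifs shown above. Socs3, the other gene with a match, was at 0.06 ± 0.13 in quadriceps and -0.05 ± 0.12 (SE) in brown fat in the authors' deposited tables. Socs2 was at -0.05 ± 0.10 in quadriceps and 0.03 ± 0.12 (SE) in brown fat there.

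Socs5 was above 0 in both tissues, at 0.16 ± 0.12 in quadriceps and 0.10 ± 0.11 (SE) in brown fat in the authors' deposited tables, and both intervals included 0. Socs6 was at 0.11 ± 0.13 in quadriceps and -0.04 ± 0.11 (SE) in brown fat there. Socs1 was at -0.02 ± 0.05 and 0.02 ± 0.07 (SE), at means too low to show a difference. Of the 9 genes other than Spsb1, the smallest unadjusted p was 0.197 in quadriceps and 0.141 in brown fat, and their estimates lay between -0.05 and 0.16 in quadriceps and between -0.05 and 0.17 in brown fat. On the scale of the deposited values, their 95% intervals reached no lower than -0.27 in quadriceps and -0.29 in brown fat, and no higher than 0.42 and 0.39.

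Over all 10 genes 4 estimates were below 0 in quadriceps and 5 in brown fat, beside 48.3% and 48.8% of all genes with a p. The median log2 fold change was 0.04 in quadriceps and 0.0027 in brown fat, beside medians of 0.0024 and 0.0015 over all genes with a p.

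**Figure D2:**
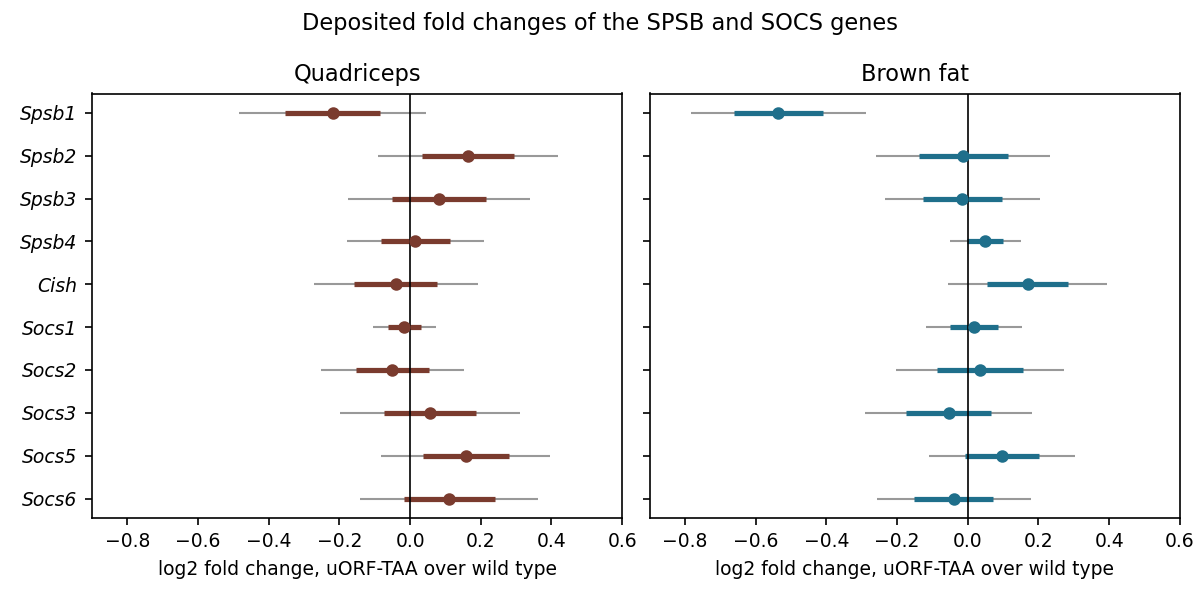
Log2 fold changes of the 10 genes, uORF-TAA over wild type, in quadriceps (left) and brown fat (right), from the authors' deposited tables. Points are estimates, thick bars 1 standard error and thin bars the 95% interval; only Spsb1 in brown fat, at -0.54, has an interval that leaves out 0.

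The effects were set side by side between tissues as quadriceps less brown fat. For Spsb1 the difference of log2 fold changes was 0.32 ± 0.18 (SE), with a 95% interval from -0.04 to 0.68 and an adjusted p of 1.00 over 16844 genes by the normal test of the difference. The change in brown fat was thus not shown to differ from that in quadriceps. Cish had a difference of -0.21 ± 0.16 (SE), and the other 8 genes lay between -0.09 and 0.18. Of all genes, 0.00% passed this test at an adjusted p under 0.05 and 1.16% had an unadjusted p under 0.05, and 0 of the 10 members had one.

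The genes whose pair of log2 fold changes lay nearest to that of Spsb1 were sought among the 9281 genes whose mean reached 50 in both tissues. The measure is the distance between the pairs, so that likeness is over only 2 tissues. Sox4, a transcription factor gene, was nearest at a distance of 0.06, with values of -0.18 (quadriceps) and -0.49 (brown fat) in the authors' deposited tables. Foxo1, a transcription factor gene, followed at 0.13 with -0.27 and -0.41, and Doc2b, which encodes a calcium sensor of exocytosis, at 0.13 with -0.27 and -0.41 in the same tables. Pik3ip1, an inhibitor of phosphoinositide 3-kinase, lay at 0.15 with -0.14 and -0.66, and Klf9, a transcription factor gene, at 0.15 with -0.12 and -0.42 there. Of these 5, Pik3ip1 alone was called in brown fat by DESeq2 (adjusted p = 1.30e-06), and 0 were called in quadriceps. Doc2b has no adjusted p in brown fat and could not be called there (unadjusted p = 8.26e-04 from DESeq2).

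**Figure D3:**
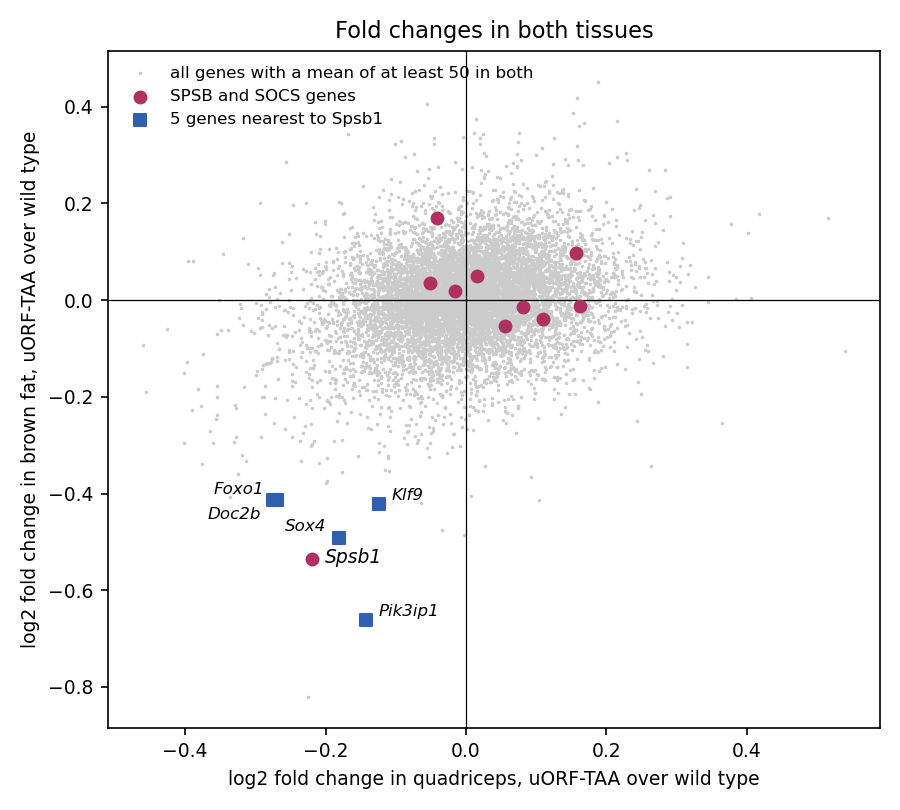
Log2 fold changes in quadriceps (x axis) and brown fat (y axis), uORF-TAA over wild type. Grey points are genes whose mean normalized count reached 50 in both tissues, red points the 10 SPSB and SOCS genes at any mean, and blue squares the 5 genes nearest to Spsb1; Spsb1 (-0.22, -0.54) stands apart from the 9 other members, which lie near 0 in both tissues.

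Markers of cell types were read beside Spsb1. Of all genes with a p, 48.3% in quadriceps and 48.8% in brown fat were below 0. Nerve glia markers had estimates below 0 in 5 of 5 genes in quadriceps and 4 of 5 in brown fat, with 1 of 5 lower at an unadjusted p under 0.05 in each (background 1.06% and 1.15%) and summed levels of 35.4 and 227 CPM. Macrophage markers were below 0 in 3 of 6 genes in quadriceps and 4 of 6 in brown fat, with 0 of 6 at an unadjusted p under 0.05 in either (background 2.00% and 2.07% in either direction). Endothelial markers were above 0 in 3 of 5 genes in quadriceps and 4 of 5 in brown fat, 1 of them, Cldn5, at an unadjusted p under 0.05 in brown fat (background 0.918% higher). Smooth muscle and pericyte markers were below 0 in 4 of 5 genes in quadriceps, 3 at an unadjusted p under 0.05, and above 0 in 4 of 5 in brown fat, with summed levels of 86.8 and 318 CPM. The 8 lymphocyte markers, of cells that express Cish and Socs1, summed to 1.02 CPM in quadriceps and 8.14 in brown fat, and 0 of 8 had an unadjusted p under 0.05. No marker of these lists was at 0 in either table, the lowest mean being 0.180 normalized counts for Cd8a in quadriceps, in the authors' deposited table. Adipocyte markers were above 0 in 4 of 5 genes in each tissue. Brown adipocyte markers were above 0 in 4 of 5 genes in quadriceps and 5 of 5 in brown fat. Muscle fibre markers were below 0 in 3 of 7 genes in quadriceps and 6 of 7 in brown fat. Fibroblast markers were above 0 in 2 of 4 genes with a p in quadriceps and 3 of 5 in brown fat. In these last lists 0 genes had an unadjusted p under 0.05 (background 2.00% and 2.07%). The part of all these cells in the values of Spsb1 was not tested.

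The machinery that the adaptors share had 0 of 12 genes at an unadjusted p under 0.05 in either tissue, against 2.00% of all genes in quadriceps and 2.07% in brown fat. With background shares so low, 0 of 12 does not show that this machinery was unchanged. The 12 genes of the elongin and cullin ligase core, with elongin B and C listed under their older symbols Tceb2 and Tceb1, lay between -0.19 and 0.16 in quadriceps and between -0.07 and 0.07 in brown fat. The scaffold gene Cul5 was at a mean of 3265 normalized counts in quadriceps and its estimate was 0.16 ± 0.12 (SE, log2) in the authors' deposited table, with Ube2f, which conjugates NEDD8 for CUL5, at -0.19 ± 0.11 (SE) there. Their median was 0.01 (quadriceps) and 0.03 (brown fat).

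Other SOCS box proteins include the ASB family, several of which are made mainly in muscle. Of 27 listed genes 26 were measured in quadriceps and 25 in brown fat, and 0 had an unadjusted p under 0.05 in either (background 2.00% and 2.07%). In quadriceps 22 of 26 were above 0, with a median of 0.06, and in brown fat 15 of 25, with a median of 0.02. The list summed to 2003 CPM in quadriceps and 404 CPM in brown fat. Muscle fibre markers were also present in the brown fat libraries, at 7881 CPM. The part of muscle in the brown fat values of this list was not tested. The medians over all genes were 0.0024 and 0.0015, with 48.3% and 48.8% of all genes below 0. Genes of a list were read in the same libraries, so their signs are not independent. The largest estimates by p in quadriceps were Asb18 at 0.21 ± 0.12 and Neurl2 at 0.20 ± 0.13 (SE) in the authors' deposited table. Neurl2 was at 0.16 ± 0.12 (SE) in brown fat there.

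Among receptors that SOCS proteins restrain, Lifr had the smallest p in brown fat. Of 18 receptor genes with a p there, 12 were below 0 and 6 above, where 48.8% of all genes were below 0. At an unadjusted p under 0.05, 3 were lower and 1 higher (background 1.15% lower and 0.918% higher), and 0 passed an adjusted p of 0.05 by DESeq2. Lifr, the receptor of leukaemia inhibitory factor, was at -0.41 ± 0.12 (SE, log2), with an unadjusted p of 0.00100 and an adjusted p of 0.393 from DESeq2 in the authors' deposited table. Il6ra, which binds interleukin-6, was at -0.34 ± 0.13 and the interferon gamma receptor gene Ifngr1 at -0.24 ± 0.11 (SE) there. The growth hormone receptor gene Ghr was at 0.29 ± 0.12 (SE) there. In quadriceps 11 of 19 were below 0, with a median of -0.03. Ifnar2, a chain of the type I interferon receptor, was the one gene there at an unadjusted p under 0.05, with -0.26 ± 0.11 (SE) in the authors' deposited table (background 1.06% lower).

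The kinases and transcription factors downstream of these receptors had small estimates. Of 11 JAK and STAT genes 0 had an unadjusted p under 0.05 in either tissue (background 2.00% in quadriceps and 2.07% in brown fat). They lay between -0.13 and 0.07 in quadriceps and between -0.11 and 0.15 in brown fat. Stat3 was at -0.11 ± 0.10 in quadriceps and -0.11 ± 0.11 (SE) in brown fat in the authors' deposited tables. The 11 other negative regulators, PIAS proteins and phosphatases among them, had 0 genes at an unadjusted p under 0.05, against the same background. Of these, 8 of 11 were below 0 in quadriceps and 8 of 11 above 0 in brown fat, where 48.3% and 48.8% of all genes were below 0.

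Response genes of STAT5 and STAT3, the factors that also induce Cish and the SOCS genes, had 1 gene at an unadjusted p under 0.05 in quadriceps, against a background of 0.942% higher, and 0 in brown fat (background 2.07% in either direction). This was Pim1, a serine kinase gene, at 0.32 ± 0.13 (SE) in quadriceps and -0.09 ± 0.13 (SE) in brown fat in the authors' deposited tables. Of the list, 7 of 13 genes were below 0 in quadriceps, with a median of -0.04, and 5 of 12 in brown fat, with a median of 0.05. In quadriceps Junb was at -0.21 ± 0.13 and Bcl6 at 0.21 ± 0.13 (SE) there. In brown fat Osmr, a chain of the oncostatin M receptor, was at -0.21 ± 0.13 and Igf1, a target of growth hormone, at 0.16 ± 0.13 (SE) there.

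Reported substrates and partners of SPSB proteins were read last, at the level of their mRNA, which does not measure their turnover. In quadriceps 3 of 10 had an unadjusted p under 0.05, 2 lower and 1 higher (background 1.06% lower and 0.942% higher), and in brown fat 2 of 10, both lower (background 1.15% lower), with 0 past an adjusted p of 0.05 by DESeq2 in either. Hnrnpa1, an RNA-binding protein gene whose product SPSB1 ubiquitylates in human cells and which has many pseudogene copies that can share its reads, was at -0.40 ± 0.09 (SE, log2) in quadriceps with an adjusted p of 0.133 from DESeq2 in the authors' deposited table, and -0.13 ± 0.12 (SE) in brown fat. Pawr, a pro-apoptotic gene, was at -0.31 ± 0.13 (SE) in quadriceps there. Tgfbr2, the type II receptor of TGF-beta and a reported target of SPSB1, was at 0.01 ± 0.10 in quadriceps and -0.27 ± 0.09 (SE) in brown fat in the authors' deposited tables. Nos2, which encodes inducible nitric oxide synthase, was at -0.01 ± 0.13 in quadriceps and -0.0033 ± 0.12 (SE) in brown fat there.

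Among 8 reported substrates of SOCS proteins, 0 had an unadjusted p under 0.05 in quadriceps (background 2.00% in either direction), and 2 in brown fat, both higher (background 0.918% higher). Irs1, the insulin receptor substrate that SOCS1 and SOCS3 can mark for degradation, was at 0.34 ± 0.10 (SE, log2) in brown fat, with an unadjusted p of 5.61e-04 and an adjusted p of 0.291 from DESeq2 in the authors' deposited table. Ghr, also listed with the receptors, was the other. Their median was -0.06 (quadriceps) and 0.08 (brown fat). Over all 8 lists other than the members, 5 of 104 genes in quadriceps and 7 of 101 in brown fat had an unadjusted p under 0.05, which is 4.81% and 6.93%, beside 2.00% and 2.07% of all genes. Of the list genes, 87 in each tissue had a mean of at least 50, and 4.60% of these in quadriceps and 8.05% in brown fat had such a p. The shares over all genes, here and above, take in genes of any mean, low ones included. No background of like level was drawn, so the list shares and those over all genes are not on like sets. The lists were chosen with results of these data known, so these shares are a description.

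**Figure D4:**
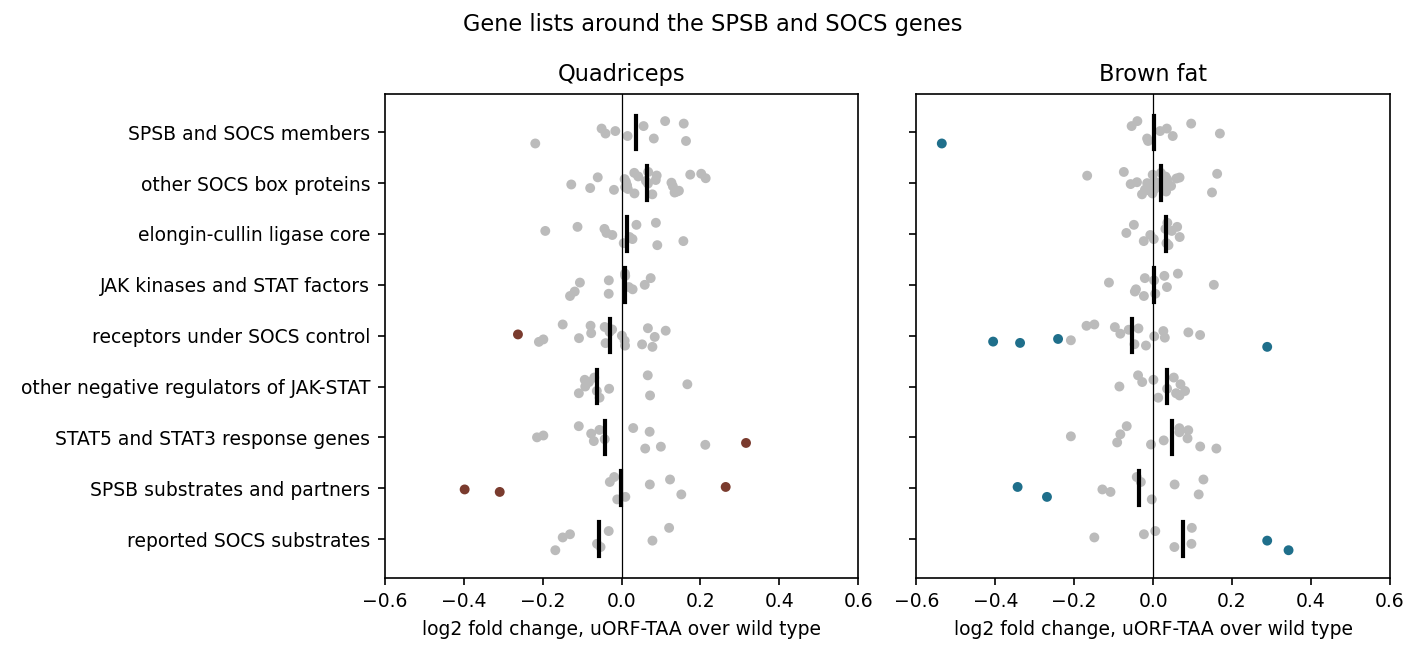
Log2 fold changes, uORF-TAA over wild type, of the genes of each list in quadriceps (left) and brown fat (right). Each point is a gene with a p, coloured where its unadjusted p is under 0.05 and grey otherwise, and the black bar is the list's median; the lowest value is Spsb1 in brown fat, at -0.54.

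Reads of some members could also come from other genes. In the GENCODE M21 gene models (GRCm38), exons of Spsb3 overlap those of Eme2 on the opposite strand over 1515 bases, and 46.3% of the windows of 75 bases in its transcripts, the length of a read, occur in Eme2. For Spsb4 the share was 13.1%, with Gm16010, for Cish 7.93%, with Gm17040 and Gm17041, and for Spsb1 0.719%, with Gm13070, all on the opposite strand. Socs6 and Socs2 overlap no gene's exons, and their shared windows, 5.24% with Gm9449 and 3.16% with Adarb1, Gm9847 and Lix1, are copies of sequence elsewhere, of which 0 of 602 and 1 of 303 are on the opposite strand, so strand would not tell them apart. Spsb2, Socs1, Socs3 and Socs5 shared 0 windows. Exons of Spsb2 do overlap those of Tpi1 on the opposite strand, over 34 bases. That is shorter than a window of 75 bases, so the share of windows could not show it. No member shared a window with another member. The libraries were stranded, but no source used here says whether the counting used strand, so for the genes with overlaps on the opposite strand, Spsb3 most of all by share, reads of both strands may be mixed.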

How the data were processed

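Libraries were made with a stranded mRNA kit and read from one end over 75 bases, per the labels' protocols. STAR 2.5.1b, DESeq2 1.10.1 and mouse build mm9 are named in the submitters' processing notes without a role; no source used here names the annotation or the read counter. Per the file headers, each deposited table gives a mean normalized count (a signal over the 8 libraries of a tissue), a log2 fold change with its standard error, a Wald statistic (a score) and p-values, all made by the authors. The members and lists were chosen with earlier results of these data known. The design foresaw deposited comparisons, so the authors' test was used unchanged, and recomputing it from the deposited columns returned the same values. Signs of the brown fat table were reversed so that uORF-TAA is the numerator. Levels were divided by the table's sum and by exon length (GENCODE M21). Depth came from means that 1 read in 1 library gives, which form 8 levels per table. Differences between tissues used a two-sided normal test with Benjamini-Hochberg adjustment and treat the tissues as independent. The labels do not say whether both came from the same mice. The test was tried on simulated normal values with the deposited standard errors, which does not check it on shrunken estimates. Only 1.16% of all genes had an unadjusted p under 0.05 by this test, so it may miss differences. Intervals are at 95%, from the deposited estimates and standard errors by the normal distribution, and so carry any shrinkage of both. Named genes are all members, up to 4 genes per list and tissue by smallest p, and the 5 genes nearest to Spsb1; Nos2, Ckm and Cd8a were named outside this rule, after their values were seen. Python 3.11.15, pandas 2.3.3, numpy 2.4.6 and scipy 1.17.1 were used. The labels do not say how libraries relate to mice beyond their number per group.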

Additional observations from a re-analysis of the deposited data

How the results depend on the processing

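The call of Spsb1 in brown fat (adjusted p of 0.0290) was lost when p-values were adjusted over every gene with a p (0.0562) and at a threshold of 0.01 (0.0290), and held when the adjustment covered only means from 10 (0.0400) or 50 (0.0333) up. With the opposite numerator for brown fat its log2 fold change there was 0.54, and the difference of quadriceps less brown fat was -0.75 (adjusted p = 0.0683 by the normal test) in place of 0.32, while 6 genes in all differed between tissues in place of 0. Called genes numbered 2 in quadriceps at a threshold of 0.1 in place of 0, and 4 in brown fat at 0.01 in place of 8. Centring on the median of all genes left 20 of 20 member values within 1 standard error. The members' summed level was 121 CPM in quadriceps and 176 in brown fat, and 168 and 194 with the 10 highest genes of each table left out of the sum. The order of levels depended on exon length, as only 5 of the 10 members in each tissue held the same place by CPM alone. No paired analysis was possible because the tables hold no values per library, which is also why no library could be left out in turn. Protein identity between members was not run, as no protein table was used here.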

Other observations

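Some genes of the lists had estimates of opposite sign in the tissues. Nr1d1, the clock repressor that SPSB4 is reported to mark for degradation, was at 0.26 ± 0.12 (SE, log2) in quadriceps and -0.34 ± 0.12 (SE) in brown fat in the authors' deposited tables. Its difference, quadriceps less brown fat, was 0.61 ± 0.17 (SE), with an unadjusted p of 3.03e-04 and an adjusted p of 1.00 over all genes by the normal test. Irs1 was at -0.17 ± 0.13 in quadriceps and 0.34 ± 0.10 (SE) in brown fat there, a difference of -0.51 ± 0.17 (SE) with an unadjusted p of 0.00226. Of 113 genes of the lists, members included, 6 had an unadjusted p under 0.05 for the difference, against 1.16% of all genes, and 0 passed when adjusted over all genes. These differences depend on reading both tables in the order of their names.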
